A study of Quercus suber with 11 samples.

Results

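GRAS proteins are plant-specific transcriptional regulators, several of which hold stem cells and their daughters in place. In the Arabidopsis root, SHORT-ROOT (SHR) moves outward from the stele, binds SCARECROW (SCR) and drives the asymmetric divisions that form the endodermis, the cell layer that later deposits suberin. SCARECROW-LIKE 23 (SCL23) is the closest relative of SCR and acts with it, and SCARECROW-LIKE 3 (SCL3) is a target of SHR and SCR that promotes gibberellin responses. HAIRY MERISTEM proteins (HAM1, HAM2 and HAM3) shape the shoot stem cell niche together with WUSCHEL-type homeobox proteins and are silenced by the microRNA miR171. The paper gives HAM3 a role in cell differentiation at the edge of shoot meristems. SCARECROW-LIKE 28 (SCL28) acts late in the cell cycle with MYB3R proteins. The cork oak homologs of these genes were followed here in innercork, where the phellogen (cork cambium) divides and its outer daughters become suberized phellem.

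The study compared innercork, the living phellem with phellogenic tissue on the inner face of virgin cork planks, from wild-grown cork oaks (*Quercus suber*) of a single locality in Girona, Spain. It covered 4 trees harvested in April (the start of cork growth), 3 in June (its maximum) and 4 in July (advanced growth), and every tree gave 1 RNA-seq library. No tree was sampled in more than 1 month, so month cannot be told apart from whatever else differed between the trees of each month. The members were all loci whose closest Arabidopsis protein was 1 of 9 GRAS genes: SHR (AT4G37650), SCR (AT3G54220), SCL1 (AT1G21450), SCL3 (AT1G50420), SCL23 (AT5G41920), SCL28 (AT1G63100), HAM1 (AT2G45160), HAM2 (AT3G60630) and HAM3 (AT4G00150). This rule found 22 of the 32024 loci, and 17 of these were among the 22426 loci that reached the minimum for testing, an rlog averaging log2 of 10 or more over the trees. The rlog is the authors' regularized log2 of the normalized read count, which shrinks loci with few reads toward their mean. It is not divided by transcript length, so levels are compared here between trees and never between loci.

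The members came from 7 of the 9 Arabidopsis genes. SCL3, SCL23 and SCL28 were each the closest gene of 5 loci, HAM3 of 4, and SHR, SCL1 and HAM2 of 1 each. No locus of the table carried SCR or HAM1. Several members were next to each other in the gene numbering of the deposited table. All 5 SCL28 loci formed 1 unbroken run, 3 of the HAM3 loci another, and 2 pairs of SCL3 loci and 1 pair of SCL23 loci were also adjacent. By name, 16 of the 22 were protein-coding by the RefSeq annotation of Cork oak 2.0, the SCL28 locus LOC111999484 was a long noncoding RNA and 5 had no match. The 5 without a match were the SCL28 locus LOC111999471, the SCL23 loci LOC112036131 and LOC112030917, the HAM2 locus LOC112007376 and an SCL3 locus under the minimum. A shared closest gene does not make a locus an ortholog, and values of adjacent, similar copies are less certain, since reads may have been divided among them during counting.

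SHR, the mobile regulator that starts the pathway in Arabidopsis, had low values in all months. Its only locus, LOC112031035, had rlog values of 2.48 ± 0.01 in April (SD, n = 4), 2.72 ± 0.07 in June (n = 3) and 2.67 ± 0.17 in July (n = 4), with a mean of 2.62 over the 11 trees, and was therefore not tested. The other 4 loci under the minimum were 3 SCL3 loci with means of -1.68 to 0.51 and the noncoding SCL28 locus at -1.94. The rlog shrinks such low values strongly, so no comparison was made for them.

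Most of the markers listed for phellem, phellogen, xylem and phloem were present. All 5 phellem genes had a locus above the minimum (CYP86A1 at a mean rlog of 18.08, CYP86B1, GPAT5, ASFT and FAR4), and so had 4 of 5 phellogen or cambium genes (ANT at 12.31, KNAT1, WOX4 and STM, with PXY at -1.45). Of the 5 xylem genes 4 were above it, with VND7 at -1.68. These were the secondary wall cellulose synthases CESA4 (8.83), CESA7 (10.41) and CESA8 (10.04), and XCP1 (4.99). Of the 4 phloem genes 3 were above the minimum, SEOR1, a sieve element protein, at 13.58, SUC2 at 6.16 and CALS7 at 5.21. No locus carried APL. LHCB1.3 and LHCB2.1, which mark photosynthetic cells, were at -1.94 and -1.04, and no locus carried RBCS1A or the endodermal CASP1 and ESB1. Several of these lists moved with the season in their summed linear values (2 to the power of rlog). The phellem sum was 997000 to 1210000 in the June trees and 656000 to 829000 in July, against 518000 to 1040000 in April. The phellogen sum was 9890 to 11100 in the June trees and 9130 to 17700 in July, against 19500 to 27300 in April. The xylem sum was 3100 to 5260 in June and 2570 to 19100 in July, against 994 to 2550 in April, and the phloem sum was 19100 to 30400 in June and 5860 to 28300 in July, against 4970 to 13400 in April. Such sums mostly reflect the loci with the highest values, and the loci of a list did not all move alike. In June/April 5 of 7 phloem and 5 of 6 phellem loci had a positive log2FC, and in July/April 4 and 3. For xylem it was 5 of 6 in both, and for phellogen 0 and 1 of 6. The xylem locus with a negative log2FC was XCP1 (-0.09 in June/April and -0.87 in July/April). Among the phloem loci with a negative log2FC was SUC2 (-1.38 and -1.35). At an adjusted p of at most 0.05 (limma), 1 of 6 phellem loci was higher in June than in April, 4 of 6 phellogen loci were lower in June and 3 in July, 4 of 6 xylem loci were higher in July, and 0 of 7 phloem loci differed, while 1 of these 7 in June and 2 in July had an unadjusted p under 0.05. In bulk tissue, fewer cells of a type and less RNA per cell cannot be told apart, and the part of these marker shifts in the changes described below was not tested. Correlations between trees were taken over all loci tested on rlog values centred per locus. They therefore compare deviations from each locus mean, not whole transcriptomes. On this scale April replicate 2 had a mean correlation of 0.00248 with the other April trees, where those had 0.151 to 0.258 with their own month. The June trees had only 0.0389 to 0.0836 with their own month. July replicate 4 was lowest at -0.0674, where the other July trees had 0.0221 to 0.027. July replicate 4 held 14.7% of its summed linear values in ribosomal RNA loci, where the other 10 trees had 1.98 to 9.26%. Calls that are gained or lost without either tree are given with the locus they concern. Such fits also moved the share of all loci with an adjusted p of at most 0.05 (limma). In June/April it was 9.81% with all trees, 21.4% without April replicate 2, 12.3% without July replicate 4 and 26.3% without both. In July/April these shares were 12.0%, 22.8%, 15% and 28.2%. Without 1 of the June trees the June/April share was 2.94 to 4.42%. Gains and losses at single loci are therefore not particular to those loci.

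The study's limits for differentially expressed genes (adjusted p of at most 0.01 and absolute log2FC above 1) were applied here to limma fits of the rlog values, which is not the test the study ran, with Benjamini-Hochberg adjustment over all loci tested. The fold minimum was set here against differences of shrunken rlog values, not against the study's own log2FC. Counts of called loci given here are therefore not those of the study. By these limits, called the study's threshold below, 0 of the 17 GRAS loci were called in June/April, July/April or July/June. Over all loci tested, 1.46%, 2.04% and 0.00446% were called in these comparisons. At an unadjusted p under 0.05 there were 8, 5 and 1 GRAS loci, where 28.3%, 30.0% and 8.93% of all loci tested had such a p. At an adjusted p of at most 0.05 with no minimum fold, which is what "rose" and "fell" mean from here on, 4 loci passed in June/April, or 23.5%, where 9.81% of all loci tested did. Of these 2 were higher and 2 lower, against 5.57% and 4.23% of all loci tested. July/April gave 2, both higher, or 11.8% (all loci tested 12.0%, with 6.31% higher and 5.73% lower). July/June gave 0 (all loci tested 0.00446%). The members were not chosen independently of earlier results on these values, so these shares are a description. An SCL3 and an SCL23 locus rose and an SCL28 and a HAM3 locus fell in June, and in July the same SCL3 locus and another SCL28 locus rose, all relative to April.

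**Figure D1:**
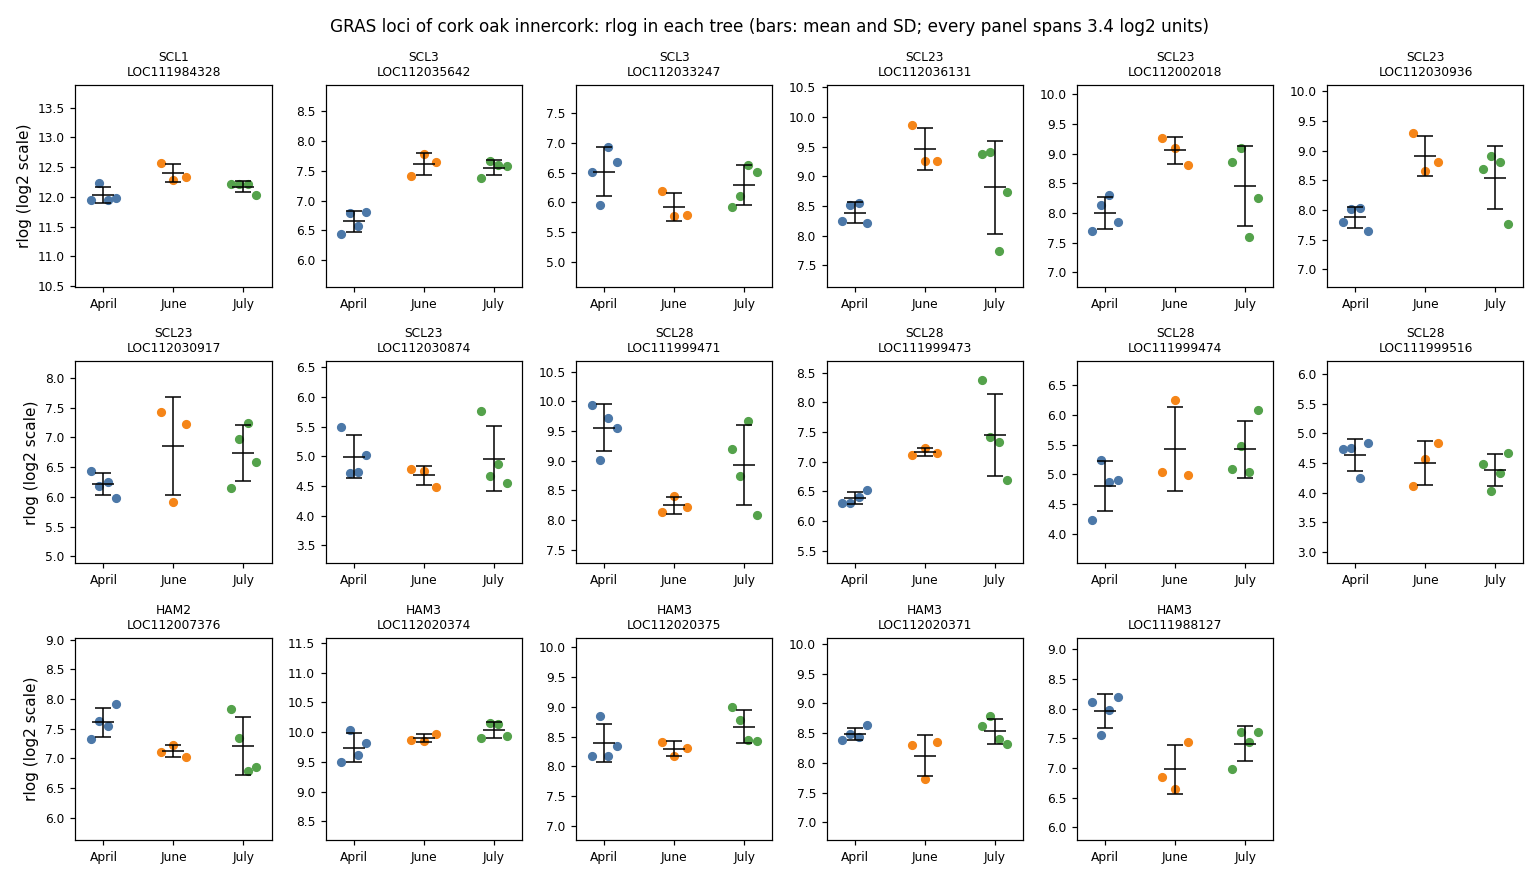
Regularized log2 expression (rlog, y axis) of the 17 GRAS loci above the minimum in each of 4 April, 3 June and 4 July trees (points), with the mean and SD of each month (bars); every panel spans the same range. The SCL3 locus LOC112035642 separates all April trees from all others, and the SCL28 loci LOC111999471 and LOC111999473 move in opposite directions between April and June, with no overlap of the trees in either locus.

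SCL3, in Arabidopsis a GRAS protein of the root endodermis that counteracts the DELLA repressors of gibberellin signalling, gave the only changes of the group that held with any 1 tree left out. Its locus LOC112035642 had rlog values of 6.44, 6.79, 6.57 and 6.80 in the April trees, 7.41, 7.78 and 7.65 in June, and 7.38, 7.66, 7.60 and 7.58 in July. Every June and July tree lay above every April tree, with the June and July trees mixed. It rose by a log2FC of 0.96 in June/April (limma: SE 0.17 and adjusted p = 0.00902), about 1.95-fold, and by 0.90 in July/April (limma: SE 0.16 and adjusted p = 0.00685), about 1.87-fold. July and June differed by -0.06, with a 95% interval of -0.43 to 0.32. In the 11 fits that left out 1 tree the adjusted p stayed between 0.00505 and 0.0434 for June/April, and for July/April between 0.00433 and 0.0247 (limma). The June/April change, a difference of shrunken rlog values, is just short of the fold minimum as applied here. Without April replicate 2 it passed the study's threshold on this scale (log2FC 1.01, limma adjusted p = 0.00505). Without both trees that stood apart, the adjusted p was 0.00506 for June/April, and 0.00596 for July/April (limma).

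The second SCL3 locus did not share this course. LOC112033247 had 6.51, 5.96, 6.93 and 6.68 in April, 6.19, 5.78 and 5.79 in June and 5.92, 6.11, 6.63 and 6.52 in July, so that the months overlapped. Its log2FC was -0.60 in June/April (95% interval -1.20 to 0.00, limma adjusted p = 0.178) and -0.22 in July/April (interval -0.78 to 0.33). Without April replicate 2 the June/April log2FC was -0.79 and passed (limma adjusted p = 0.0464), and it also passed without both trees that stood apart (0.0431). The adjacent SCL3 locus LOC112033252 was one of those under the minimum.

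Over the 11 trees, the course of LOC112035642 was most like that of LOC112012906, a homolog of AT5G13640 (PDAT1, which makes triacylglycerol from phospholipid), with a root mean square difference of 0.0988 between rlog values centred per locus. Next came LOC112033540, a homolog of AT4G24730, at 0.112. The median over the other 22425 loci tested was 0.597. The GRAS locus most like it was the HAM3 locus LOC112020374, at 0.36, rank 1881.

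SCL23, the partner of SHR and SCR in the Arabidopsis endodermis and bundle sheath, had 5 loci above the minimum, and 3 of these had June/April log2FC of 1.04 to 1.08, of which 1 passed. LOC112030936 had 7.80, 8.02, 8.03 and 7.65 in the April trees, 9.29, 8.65 and 8.80 in June, and 8.69, 8.91, 8.81 and 7.77 in July. All June trees lay above all April trees, and July replicate 4 lay among the April values. It rose by 1.04 in June/April (limma: SE 0.28 and adjusted p = 0.0419), while its July/April log2FC was 0.67 (95% interval 0.11 to 1.24, limma adjusted p = 0.109). This call kept an adjusted p of at most 0.05 in 3 of the 11 fits that left out 1 tree (without April replicate 2, July replicate 2 or July replicate 4), and in the other 8 the limma adjusted p was 0.0527 to 0.159 with log2FC of 0.85 to 1.17 over all 11 fits. Without July replicate 4 the adjusted p was 0.00892, and without April replicate 2 as well it was 0.00529 (limma). The July/April log2FC also passed without July replicate 4, at 0.93 (limma adjusted p = 0.0114), and without both trees, at 0.98 (limma adjusted p = 0.00709).

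LOC112036131 and LOC112002018 varied together across the trees. The first had 8.24, 8.52, 8.55 and 8.22 in April, 9.87, 9.26 and 9.25 in June, and 9.37, 9.40, 7.74 and 8.74 in July. The second had 7.70, 8.14, 8.30 and 7.85 in April, 9.26, 9.10 and 8.80 in June, and 8.86, 9.10, 7.60 and 8.26 in July. In both, all June trees were above all April trees, and July replicate 3 was below every April tree. Their June/April log2FC of 1.08 (95% interval 0.28 to 1.88, limma adjusted p = 0.0853) and 1.06 (interval 0.34 to 1.77, limma adjusted p = 0.0651) did not pass. Without July replicate 3 both passed (limma adjusted p = 0.0228 and 0.0297), and so they did when only the April and June trees were fitted (0.0249 and 0.0261), at the same log2FC. Their root mean square difference of centred rlog was 0.15, the lowest among the 136 pairs of tested GRAS loci, whose values reached 1.19. They are not adjacent in the gene numbering, and whether reads were shared between them was not tested.

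The remaining SCL23 loci were less clear. LOC112030917, which is adjacent to LOC112030936, had 5.98 to 6.44 in April, 5.91 to 7.43 in June and 6.15 to 7.24 in July, and its June/April log2FC of 0.64 had an interval of -0.19 to 1.47. LOC112030874 had 4.72 to 5.50 in April, 4.49 to 4.78 in June and 4.55 to 5.76 in July, with a log2FC of -0.32 (interval -0.99 to 0.36). In July/June none of the 5 SCL23 loci passed, with log2FC of -0.65 to 0.28.

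**Figure D2:**
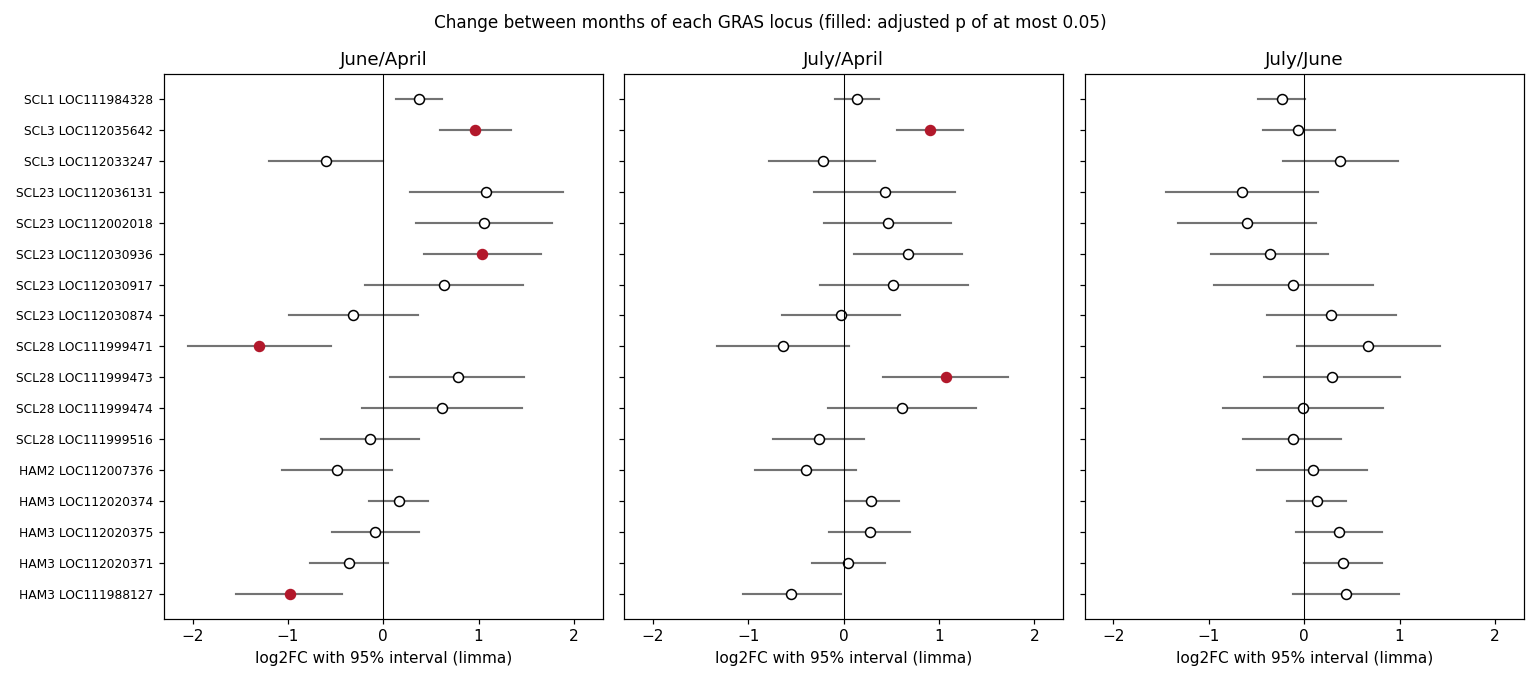
Change of each of the 17 GRAS loci between months as log2FC with its 95% interval from limma (x axis), in June/April, July/April and July/June; filled points have an adjusted p of at most 0.05. The filled points, 4 for June/April on both sides of 0 and 2 for July/April, have no counterpart in July/June.

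SCL28, whose Arabidopsis gene is expressed in dividing cells and restrains the step into mitosis through inhibitors of cyclin-dependent kinases, gave the clearest contrast within a single Arabidopsis gene. LOC111999471, the first locus of the run and without a match by name in the RefSeq annotation, had 9.94, 9.01, 9.72 and 9.55 in the April trees, 8.13, 8.41 and 8.22 in June, and 9.19, 8.74, 9.67 and 8.09 in July. All June trees were below all April trees, and the July trees spread across both. It fell in June/April with a log2FC of -1.30 (limma: SE 0.34 and adjusted p = 0.0382), to 0.405 of the April level. This was the largest difference among the 17 tested members in any month comparison. In July/April the log2FC was -0.64 (95% interval -1.33 to 0.06, limma adjusted p = 0.202), and in July/June 0.67 (interval -0.08 to 1.42). The June/April call kept an adjusted p of at most 0.05 in 4 of the 11 fits that left out 1 tree, those without April replicate 2 or July replicate 1, 3 or 4. In the other 7 it was 0.0533 to 0.126, and without both trees that stood apart the log2FC was -1.49 (limma adjusted p = 0.0036). The phellogen and cambium markers were lower in the same June trees, and their part in this change was not tested.

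The next locus of the run was higher after April, not lower. LOC111999473 had 6.31, 6.31, 6.41 and 6.52 in April, 7.11, 7.24 and 7.15 in June, and 8.37, 7.42, 7.34 and 6.69 in July. Every June and July tree lay above every April tree. It rose by 1.07 in July/April (limma: SE 0.29 and adjusted p = 0.0417), about 2.1-fold, and its June/April log2FC of 0.78 (95% interval 0.07 to 1.48) did not pass (limma adjusted p = 0.141), but did without July replicate 1 (limma adjusted p = 0.046) and with only the April and June trees fitted (0.0346). Of the 11 fits without 1 tree, 2 kept the July/April call. Without April replicate 2 the limma adjusted p was 0.0494, without July replicate 4 it was 0.0106, and without both it was 0.0101. The other 9 fits gave 0.0558 to 0.1 (limma), with the smallest log2FC, 0.76, without July replicate 1.

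The 2 loci were compared within each tree after their values were seen, as a description in which any offset from transcript length is the same in every tree. LOC111999471 minus LOC111999473 was 3.64, 2.70, 3.31 and 3.03 in the April trees, 1.03, 1.17 and 1.07 in June, and 0.81, 1.32, 2.33 and 1.39 in July. The difference was thus smaller in each of the 7 June and July trees than in each April tree. The other tested loci of the run had low rlog values and did not separate the months. LOC111999474 had 4.23 to 5.24 in April, 4.99 to 6.25 in June and 5.04 to 6.08 in July, and LOC111999516 had 4.24 to 4.84 in April, 4.11 to 4.84 in June and 4.03 to 4.67 in July.

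**Figure D3:**
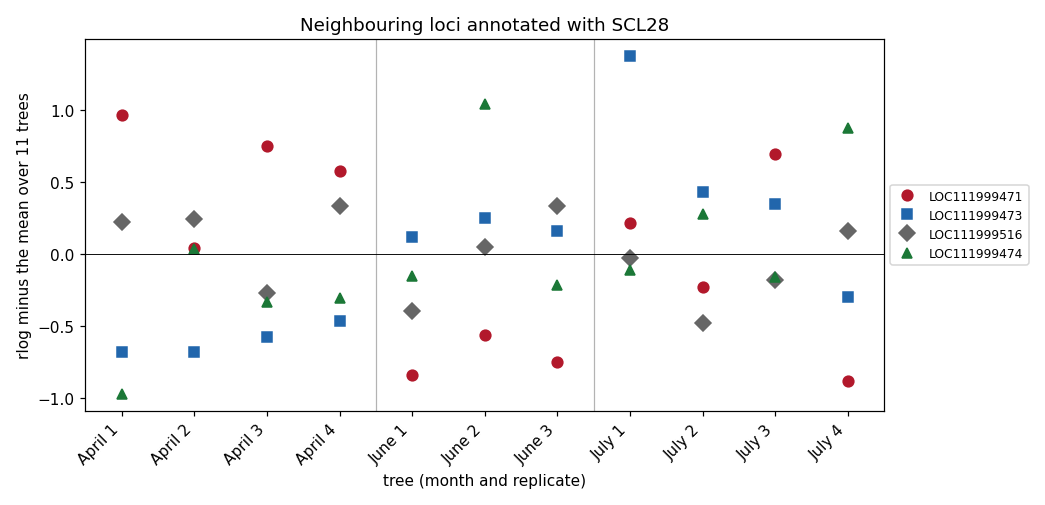
The 4 tested loci of the SCL28 run in each tree, as rlog minus the mean of that locus over the 11 trees (y axis), with trees along the x axis in the order April, June, July. LOC111999471 (circles) lies above LOC111999473 (squares) in all April trees and below it in all June trees, on this centred scale.

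Of the HAM genes, which in Arabidopsis shape the shoot stem cell niche with WUSCHEL, 1 of 5 loci changed. The HAM3 locus LOC111988127 had 8.12, 7.56, 7.97 and 8.19 in the April trees, 6.85, 6.64 and 7.44 in June, and 6.99, 7.61, 7.43 and 7.61 in July. All June trees were below all April trees, and 2 July trees lay just above the lowest April tree. It fell by 0.98 in June/April (limma: SE 0.25 and adjusted p = 0.036), to 0.506 of the April level, and had a log2FC of -0.55 in July/April (95% interval -1.06 to -0.03, limma adjusted p = 0.145). The June/April call kept an adjusted p of at most 0.05 in 5 of the 11 fits without 1 tree (without April replicate 2, June replicate 3, or July replicate 1, 2 or 4), and the limma adjusted p was 0.0528 to 0.126 in the other 6. Without both trees that stood apart the log2FC was -1.12 (limma adjusted p = 0.0136). The part of the lower phellogen and cambium markers in this change was not tested.

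The 3 adjacent HAM3 loci had smaller differences between June and April, and none of them passed with all 11 trees. LOC112020374 had 9.49 to 10.04 in April, 9.85 to 9.97 in June and 9.91 to 10.16 in July, with a June/April log2FC of 0.16 (95% interval -0.15 to 0.47). Its July/April log2FC of 0.29 (limma adjusted p = 0.16) became 0.39 without April replicate 2 and passed (limma adjusted p = 0.0325), and without July replicate 4 as well it was 0.42 (limma adjusted p = 0.0248). LOC112020375 had 8.39 ± 0.32 in April, 8.30 ± 0.12 in June and 8.66 ± 0.28 in July (SD). Its July trees were above all June trees (July/June log2FC 0.36, 95% interval -0.09 to 0.82), and its June/April log2FC was -0.09 (interval -0.54 to 0.37), or 0.07 without April replicate 2. Its July/April log2FC of 0.28 (limma adjusted p = 0.361) was 0.51 without both trees that stood apart and then passed (limma adjusted p = 0.045). LOC112020371 had 8.39 to 8.63 in April, 7.72 to 8.35 in June and 8.32 to 8.79 in July. Its June trees were below all April trees, with a log2FC of -0.36 (interval -0.77 to 0.05), and its July/June log2FC of 0.41 was the only one among the 17 loci with an unadjusted p under 0.05 in that comparison (limma adjusted p = 0.557). Whether these loci differ from LOC111988127 was not tested. The HAM2 locus LOC112007376 had 7.33, 7.63, 7.55 and 7.91 in April, 7.11, 7.23 and 7.03 in June and 7.83, 7.34, 6.79 and 6.86 in July. Its June trees were below all April trees, with a log2FC of -0.48 (interval -1.06 to 0.09, limma adjusted p = 0.249).

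SCL1 was represented by LOC111984328, the locus with the smallest spread between trees. It had 11.95, 12.23, 11.95 and 11.98 in April, 12.57, 12.29 and 12.34 in June, and 12.22, 12.21, 12.21 and 12.03 in July. The June trees were above all April and all July trees, by a June/April log2FC of 0.37 (95% interval 0.13 to 0.62, limma adjusted p = 0.0607) and a July/June log2FC of -0.23 (interval -0.48 to 0.01, limma adjusted p = 0.595), neither of which passed. Without April replicate 2, which lay apart from the other April trees, the June/April log2FC was 0.44 (limma adjusted p = 0.0135), and without July replicate 4 it was 0.37 (limma adjusted p = 0.0483), so that it passed in both fits. Without both trees it was 0.44 (limma adjusted p = 0.00728).

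**Figure D4:**
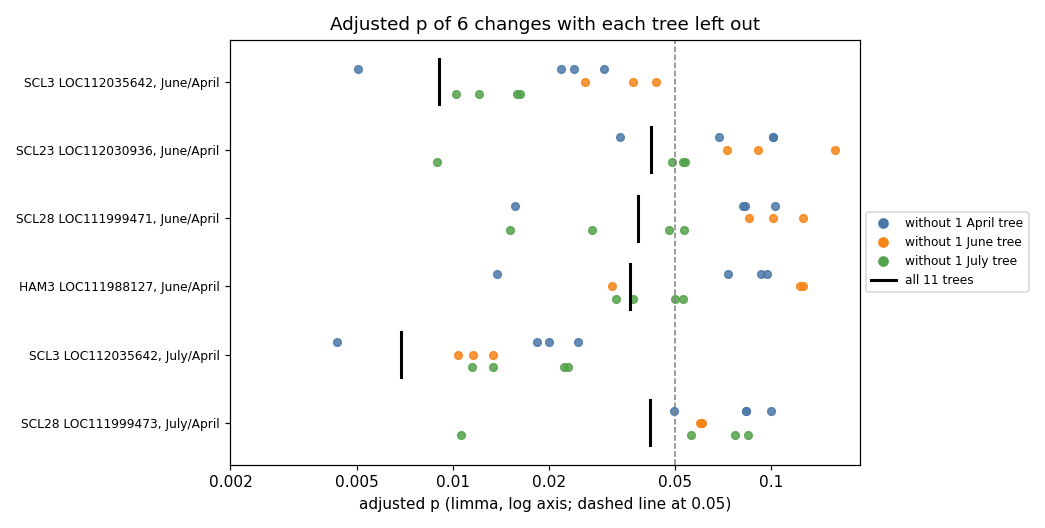
Adjusted p (x axis, log scale) of the 6 changes with an adjusted p of at most 0.05, with all 11 trees (vertical bars) and with each tree left out (points, by month of that tree). Both SCL3 changes stay left of the dashed line at 0.05 in all 11 fits; the others cross it in 6 to 9 of them.

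Taking the 17 loci as a list, the months separated most in June/April. The groups did not overlap for 10 loci (58.8%, against 26.9% of all loci tested). Of these, 6 were higher and 4 lower in June, where 13.9% and 13.0% of all loci tested were. July/April gave 2 such loci, both higher (11.8%, against 17.5% of all loci tested, with 8.70% higher and 8.78% lower). July/June gave 2, with 1 higher and 1 lower (11.8%, against 10.7% of all loci tested, with 5.11% higher and 5.58% lower). The direction was mixed: the median log2FC was 0.16 for June/April, 0.28 for July/April and 0.09 for July/June, against -0.02, -0.02 and 0.00 over all loci tested. With 1 tree left out these medians ranged from 0.08 to 0.26, from 0.17 to 0.39 and from 0.02 to 0.17. The highest month mean was in April for 6 loci, in June for 7 and in July for 4, where 41.9%, 30.2% and 27.9% of all loci tested had their maximum in these months. June/April and July/April share the April trees, so their values are not independent.

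A list of 22 other GRAS genes had 23 tested loci. Of these, 5 rose and 1 fell in June/April (26.1% of the list, against 9.81% of all loci tested), and 6 rose and 1 fell in July/April (30.4%, against 12.0%). By the study's threshold 3 were higher and 1 lower in either comparison, where 1.46% and 2.04% of all loci tested were called. The list's median log2FC was 0.23 and 0.25. The largest change was in LOC112035777, a homolog of the DELLA repressor RGL1, with 11.38 ± 0.35 in June and 11.37 ± 0.20 in July, against 8.45 ± 1.16 in April (SD), a log2FC of 2.93 (limma: SE 0.51 and adjusted p = 0.00843) and 2.92 (limma: SE 0.47 and adjusted p = 0.00499). The SCL13 locus LOC111995609 rose by 1.02 and 1.17 (limma adjusted p = 0.00283 and 0.000835), and the SCL14 locus LOC112016112 by 1.20 and 1.24 (limma adjusted p = 0.00352 and 0.00168). The SCL33 locus LOC112006785 fell by 1.44 in June/April and fell by 1.18 in July/April (limma adjusted p = 0.00639 and 0.00807). All 8 of these changes kept an adjusted p of at most 0.05 with each tree left out. The other tested SCL14 loci had log2FC of -0.69 to 0.82 in June/April and of -0.82 to 0.87 in July/April. The tested loci of the DELLA genes RGA and GAI had log2FC of -0.59 to -0.05 in June/April and of -0.77 to 0.08 in July/April. None of these RGA and GAI loci passed. Whether the list differs from the 17 loci was not tested.

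Among 21 tested loci of genes that work with SHR and SCR in Arabidopsis, 0 rose and 1 fell in June/April (4.76%, against 9.81% of all loci tested), and 1 rose and 3 fell in July/April (19%, against 12.0%). Their median log2FC was -0.29 and -0.27. The locus LOC112023896, a homolog of MYB36, which switches on Casparian strip genes downstream of SCR, had 9.91 ± 0.41 in July and 11.38 ± 0.22 in April, a log2FC of -1.47 (limma: SE 0.20 and adjusted p = 0.00244). The other tested MYB36 loci had July/April log2FC of -0.89 (limma adjusted p = 0.018) and -0.38 (limma adjusted p = 0.0605). The CYCD6;1 locus LOC111984715, homolog of the D-type cyclin that SHR and SCR activate before the formative division, fell by 1.33 in July/April (limma: SE 0.35 and adjusted p = 0.0349), a call that 4 of the 11 fits without 1 tree kept. PHB (LOC112031480), a homeobox gene that the SHR pathway restricts through microRNAs, fell by 1.20 in June/April (limma: SE 0.29 and adjusted p = 0.0304), a call kept in 5 of 11. The other tested PHB locus had a June/April log2FC of -0.50 (limma adjusted p = 0.697). The IDD2 locus LOC112003929, of the zinc finger family that binds SCR and DELLA proteins, rose by 1.52 in July/April (limma: SE 0.31 and adjusted p = 0.0126). The other tested IDD2 loci had July/April log2FC of -0.35, -0.27 and 0.25, and none of them passed.

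Of the HAM partners 2 loci were tested, with median log2FC of -0.95 in June/April, where 1 fell, and -0.57 in July/April, where 0 passed and 2 had an unadjusted p under 0.05. WOX4 (LOC111988759), which sustains cambium divisions, fell by 1.06 in June/April (limma: SE 0.21 and adjusted p = 0.0158), with 10.70 ± 0.18 in June against 11.75 ± 0.33 in April, and 9 of the 11 fits without 1 tree kept this call. WUS (LOC111987351) had 4.61 in June against 5.46 in April, a log2FC of -0.85 (limma adjusted p = 0.0677). WOX4 is also one of the phellogen markers above. The 8 tested loci of the SCL28 pathway had median log2FC of -0.26 (June/April) and -0.04 (July/April), with 1 locus lower in each comparison (12.5%, against 9.81% and 12.0% of all loci tested). KNOLLE (LOC111996203), the syntaxin of the dividing cell plate, fell by 1.09 in June/April (limma: SE 0.31 and adjusted p = 0.0496), a call that 2 of 11 fits kept. The MYB3R5 locus LOC111993003 fell by 0.72 in July/April (limma: SE 0.13 and adjusted p = 0.00839). The other tested MYB3R5 loci had July/April log2FC of 0.86 and 0.19, and neither passed. The 8 tested gibberellin loci had medians of -0.03 and 0.02, and 1 rose and 1 fell in each comparison with April (25%, against the same 9.81% and 12.0%). These were the RGL1 locus above and LOC112017109, a homolog of the gibberellin-inactivating enzyme GA2ox1, which fell by 3.07 in June/April and fell by 2.83 in July/April (limma adjusted p = 0.00182 and 0.00106). In July/June 0 loci of these lists had an adjusted p of at most 0.05 (limma), and at an unadjusted p under 0.05 there were 1 of the other GRAS loci, 2 of the SHR and SCR partners, 1 of the HAM partners, 4 of the SCL28 pathway and 0 of the gibberellin loci, where 8.93% of all loci tested had such a p.

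**Figure D5:**
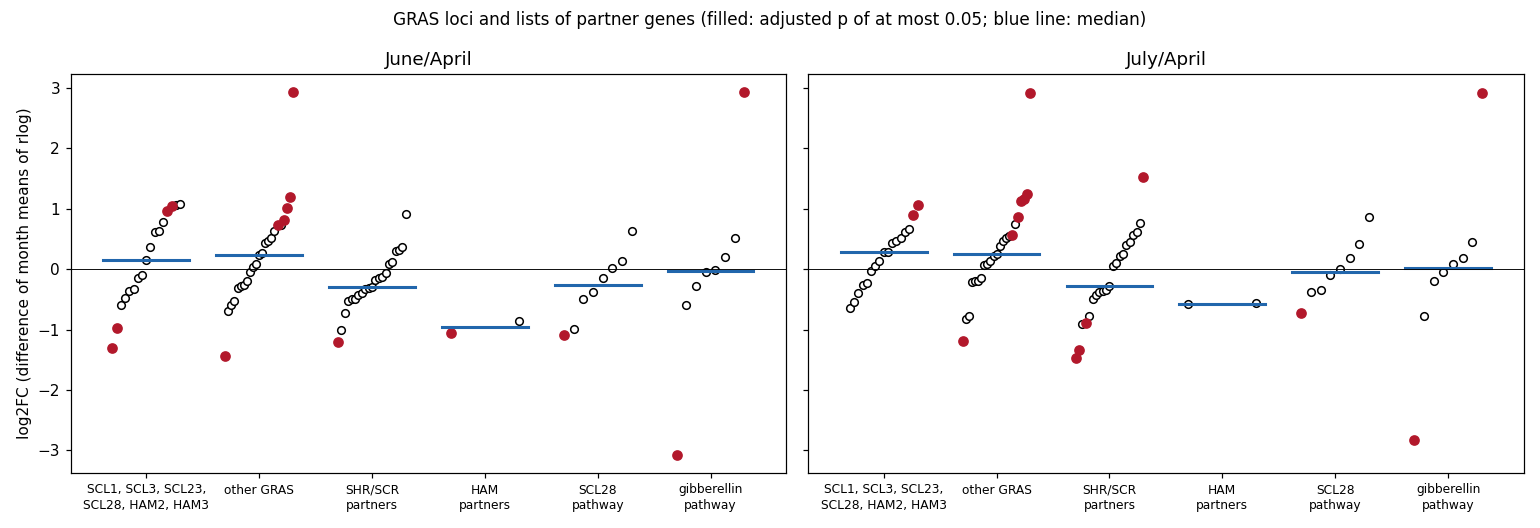
Change from April of every tested locus (points) of SCL1, SCL3, SCL23, SCL28, HAM2 and HAM3 together and in 5 lists of related genes, as log2FC (y axis) in June/April and July/April; filled points have an adjusted p of at most 0.05 and blue lines are medians. The GRAS loci of this group span log2FC of -1.30 to 1.08 in June/April, and every list except the HAM partners has points on both sides of 0.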

How the data were processed

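Libraries were made from polyA RNA with the TruSeq kit. The authors checked reads with FastQC 0.11.5, trimmed adapters with Skewer, removed ribosomal reads with riboPicker, mapped to CorkOak1.0 with STAR 2.5.3a and annotated loci by their best BLASTP hit in TAIR10. The authors deposited rlog values, on the log2 scale, that they made with DESeq2 for 11 trees. Read totals of each tree cannot be recovered from these, so depth was not examined here and precision rests on the variation among trees (median residual SD 0.346 for the GRAS loci, 0.302 for all loci tested). An rlog difference understates the change of loci with few reads.

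Month was the only factor in limma 3.58.1 (R 4.3.3), fitted on all 11 trees, with a variance trend and Benjamini-Hochberg adjustment over 22426 loci. The members and gene lists were chosen with earlier results of these data known. Named genes are all tested members, the 2 loci most like the member with the smallest p, and up to 4 loci per related list, those with the largest absolute log2FC among adjusted p of at most 0.05. The WUS locus and 3 members under the minimum were named outside this rule after their values were seen. Alternatives changed the minimum level, scale, normalization, variance prior, tree weights, threshold, samples, the replicate block and each tree. The deposited column names match 1 tree each. The gene table of Cork oak 2.0 gave biotypes only. Sequences were not analysed here.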

Additional observations from a re-analysis of the deposited data

Results flagged for a closer look

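Of 34 month groups of 4 trees examined, 2 had a tree whose gap to the nearest other tree exceeded the share of the group's range that Dixon's test allows, where chance flags about 1 group in 20. Both concern the SCL1 locus LOC111984328. April replicate 2 had an rlog of 12.23 against 11.95 to 11.98 in the other April trees, and July replicate 4 had 12.03 against 12.21 to 12.22 in the other July trees. These are the 2 trees that also stood apart over all loci. The cause was not tested.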

How the results depend on the processing

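With the threshold at an adjusted p of 0.05 and no minimum fold, the count of 0 GRAS loci became 4 in June/April and 2 in July/April. By the study's threshold, quantile normalization and centring of the trees each called 1 locus in June/April (LOC112035642), arrayWeights called 3 for June/April and 1 for July/April, and leaving out April replicate 2 and July replicate 4 together called 3 in June/April. Leaving out 1 tree gave 0 to 1 in June/April and 0 in the others. Calls over all loci tested moved as well, from 327 of 22426 in June/April and 457 in July/April. With arrayWeights they were 1306 and 1272, and without both trees 1189 of 22443 in June/April. Quantile normalization gave 321 and centring 311 in June/April. Without 1 tree they were 24 to 936 in June/April and 195 to 974 in July/April. At an adjusted p of at most 0.05, arrayWeights gave 9 GRAS loci for June/April and 5 for July/April, no minimum level gave 2 and 1, and July/April gave 1 from the trees of those months alone and 5 without both named trees. The share of all loci moved too, to 30.1% and 30.2% with arrayWeights, 5.24% and 6.85% with no minimum, 7.57% from the trees of April and July alone and 28.2% in July/April without both trees, against 9.81% and 12.0%. Without 1 tree the June/April count was 1 to 6, and that of July/April 1 to 3. The replicate number as a block gave 2 and 1 GRAS loci, with 5.9% and 10% of all loci tested. Trees with the same number had correlations of their deviations of -0.08 to 0.21 (median 0.025) over 10 pairs, and others -0.12 to 0.14 over 30. These numbers are those of the sample titles, which differ from the library labels for 2 June trees, so pairing by library label was not examined. By the design, no tree was sampled in more than 1 month. The median log2FC moved in June/April to 0.27 with a minimum of log2 of 50, to 0.26 without both trees and to 0.08 to 0.26 without 1 tree. In July/April it moved to 0.40 with arrayWeights, 0.42 without both trees and 0.17 to 0.39 without 1 tree, and in July/June to 0.02 to 0.17 without 1 tree.

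Of 1062 values of single loci under alternatives, 977 kept their sign and their side of 0.05, 38 no longer passed, 24 newly passed and 23 changed sign, none of the last in a comparison in which that locus rose or fell. The sign turned for LOC112020375 in June/April with arrayWeights (0.02) and without both trees (0.07), for LOC112030874 in July/April with quantile normalization (0.03), centring (0.00) and without both trees (0.01), and for LOC112030917 in July/June with arrayWeights (0.02). Without 1 tree, log2FC ranges that crossed 0 were -0.30 to 0.06 for LOC111999516 and -0.16 to 0.07 for LOC112020375 in June/April, -0.30 to 0.14 for LOC112030874 and -0.04 to 0.12 for LOC112020371 in July/April, and in July/June -0.16 to 0.03 for LOC112035642, -0.59 to 0.17 for LOC112030917, -0.02 to 0.55 for LOC111999473, -0.23 to 0.40 for LOC111999474, -0.32 to 0.04 for LOC111999516 and -0.12 to 0.23 for LOC112007376. The causes were not tested.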
